A study of Mus musculus with 6 samples.

Results

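Fibroblast growth factor (FGF) receptors and ligands were followed in mouse embryonic stem cells after loss of Dicer, the enzyme that cuts microRNA precursors. The genes were taken by name: the receptors Fgfr1, Fgfr2, Fgfr3 and Fgfr4, the ligands Fgf4, Fgf8 and Fgf17, and the adaptor Frs2. A probe set was used where its single listed gene was one of these 8. Of them, 7 had such a probe set, 1 each, among 19938 genes in all. Frs2 was not analysed here. The tamoxifen group held 3 arrays of Dicer Fx/Fx cells, whose Dicer alleles can be deleted, that had received tamoxifen for 3 days and were collected 2 days later, on day 5. The untreated group held 3 arrays of the same Dicer Fx/Fx cells, labelled as without deletion, with no day of collection given. All 6 samples were total RNA of embryonic stem cells in standard culture. The labels name neither the recombinase nor the number of clones, and do not say that the numbered replicates were separate cultures, so the p-values reflect the spread among these arrays, part of which may be technical. E14 wild-type cells that also received tamoxifen were not analysed here, so effects of tamoxifen and of Dicer deletion cannot be told apart.

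Most FGFs are secreted proteins that bind receptor tyrosine kinases on the cell surface together with heparan sulfate chains. The bound receptors phosphorylate the adaptor encoded by Frs2, which recruits Grb2 and Sos and turns on RAS and the ERK kinases. In mouse embryonic stem cells Fgf4 is the main ligand made by the cells themselves, and ERK activity downstream of it prepares them to leave the naive state. Fgfr1 is the receptor known for that role, and Fgfr2 is known for the primitive endoderm and the trophoblast.

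The values are log2 intensities, so a difference of 1 is a doubling of signal. A gene was called where limma's Benjamini-Hochberg adjusted p over all 19938 genes was under 0.05. Dicer1 itself had 9.53, 9.48 and 9.69 on the tamoxifen arrays (replicates 1 to 3), against 11.43, 11.36 and 11.48 on the untreated arrays, a log2 change of -1.85 ± 0.07 (SE, adjusted p = 3.61e-05). Across genes, pairs of arrays correlated at 0.996 to 0.998 within a group and at 0.993 to 0.996 between the groups. Tamoxifen replicate 1 was nearest to the untreated arrays on the first principal component, with a score of 6.87, where tamoxifen replicates 2 and 3 had 17.9 and 15.8. The 9 embryonic stem cell markers had a mean log2 signal of 12.72 to 12.78 on the tamoxifen arrays and 12.78 to 12.86 on the untreated arrays. The samples thus carried the markers of their labelled cell type.

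In the fit without regard to replicate numbers Fgfr2 alone of the 7 genes was called, and it rose. That is 1 of 7 members, beside 7.78% of all genes called in either direction and 3.79% called higher. Fgf4 was lower in every replicate pair and passed the test only in the fit that pairs the samples by replicate number. Fgfr1, Fgfr3, Fgfr4, Fgf8 and Fgf17 passed in neither fit. The groups did not overlap for 5 of the 7 members, a property shared by 29.3% of all genes.

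The promoters of Fgfr2 and Fgf4, the members that passed in either fit, are shown for orientation. They come from RefSeq (GRCm38.p6), run 5′ to 3′ on the gene's strand, and reach from 250 bases before the annotated start to 50 after it. Fgfr2 is at chr7:130266759-130267058 on the minus strand and Fgf4 at chr7:144861136-144861435 on the plus strand. Capitals mark matches on either strand to 4 short motifs, none of which overlapped. The TATA box was searched as the letters TATAAA. The motif named after its letters CCAAT was searched as such. The GC box, which Sp1 binds, was searched as GGGCGG. For the core that ETS factors such as Etv4 bind, the letters were CCGGAA.
Fgfr2: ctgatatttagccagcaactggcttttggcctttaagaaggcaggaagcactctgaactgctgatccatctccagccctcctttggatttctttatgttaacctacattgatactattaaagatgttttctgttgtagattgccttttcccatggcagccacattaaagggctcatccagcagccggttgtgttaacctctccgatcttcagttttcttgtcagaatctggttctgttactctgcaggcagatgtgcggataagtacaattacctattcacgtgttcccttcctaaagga
Fgf4: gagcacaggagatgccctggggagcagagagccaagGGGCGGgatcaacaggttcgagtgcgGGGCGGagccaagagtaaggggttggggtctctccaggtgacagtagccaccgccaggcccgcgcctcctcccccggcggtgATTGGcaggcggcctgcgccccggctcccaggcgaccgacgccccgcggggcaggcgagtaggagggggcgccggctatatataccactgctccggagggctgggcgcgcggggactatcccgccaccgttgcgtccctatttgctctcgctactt
The Fgfr2 window held none of these motifs, had 4 CG dinucleotides and was 43.7% G and C. The Fgf4 window held 2 GC boxes, starting at -214 and -188 from the start site, and 1 CCAAT box on the opposite strand at -106. Its stretch tatata is unmarked because only the exact letters TATAAA were searched. The Fgf4 window had 28 CG dinucleotides and was 69.7% G and C, against a median of 7 CG dinucleotides over 32851 promoters. Of those promoters, 35.7% held a GC box, 37.4% a CCAAT box, 13.6% a TATA box and 14.9% the ETS core. A match is a description of the letters and no evidence of binding. The table held a promoter for 5 of the 8 named genes.

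**Figure D1:**
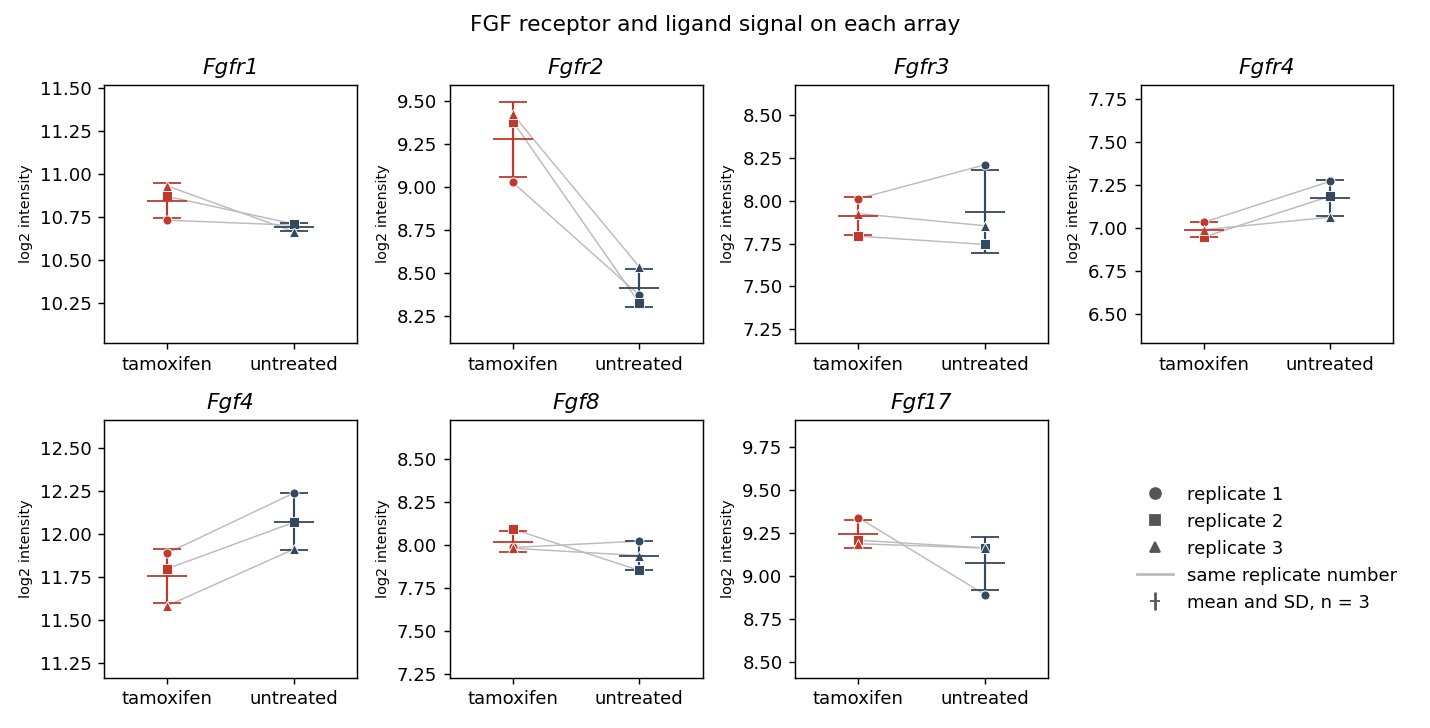
Log2 intensity of the 7 genes on each array, tamoxifen left and untreated right. The vertical axes have the same width in log2 units, but each is centred on its own gene, so heights cannot be compared across panels. Points are arrays, bars the mean and SD of 3, and grey lines join arrays of the same replicate number. The 3 tamoxifen points of Fgfr2, 9.03 to 9.42, all lie above the untreated points, and the lines of Fgf4 run nearly in parallel.

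Among the receptors, Fgfr2 showed the clear difference. This receptor tyrosine kinase is made in splice forms that differ in the ligands they bind, and its single probe set (10568436) gives 1 value for all of them. Fgfr2 had 9.03, 9.38 and 9.42 on the tamoxifen arrays, against 8.37, 8.33 and 8.54 on the untreated arrays. All tamoxifen values lay above all untreated values, tamoxifen replicate 1 being the lowest of its group. The means were 9.28 ± 0.22 with tamoxifen and 8.41 ± 0.11 without (SD, n = 3 each). The log2 change was 0.87 ± 0.11 (SE), a rise of 1.82-fold with a 95% confidence interval from 1.53 to 2.17. The limma adjusted p was 0.00499, and 118 is the rank of Fgfr2 among all genes by p. With the replicate block, where 7.87% of all genes were called higher, its adjusted p was 0.000643. It rose in 3 of 3 replicate pairs, by 0.66, 1.06 and 0.89 on the log2 scale. An exact two-sided permutation test of the group difference gave p = 0.1, the smallest that 3 against 3 arrays can give. Whichever array was left out, Fgfr2 stayed called, with log2 changes from 0.79 to 0.99 and adjusted p-values from 0.00186 to 0.029.

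Fgfr1, the receptor known for the response of these cells to Fgf4, had 10.73, 10.87 and 10.93 on the tamoxifen arrays, against 10.70, 10.71 and 10.67 on the untreated arrays. The groups did not overlap, but tamoxifen replicate 1 was only 0.03 above its untreated partner. The log2 change was 0.15 ± 0.07 (SE, 95% interval -0.00401 to 0.31, limma adjusted p = 0.215, and 0.152 with the replicate block), which did not pass the test.

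Fgfr3, which restrains growth of cartilage, had 8.01, 7.79 and 7.92 on the tamoxifen arrays, against 8.21, 7.74 and 7.85 on the untreated arrays. The groups overlapped, and replicate 1 was the highest array in each. The log2 change of Fgfr3 was -0.03 ± 0.12 (adjusted p = 0.92), and its interval, -0.29 to 0.24, covers modest changes in either direction. Fgfr4, known as a receptor for Fgf15 in the liver, had 7.04, 6.95 and 6.99 with tamoxifen, against 7.27, 7.19 and 7.06 without. All its tamoxifen values lay below the untreated ones, with untreated replicate 3 close to them. The log2 change of Fgfr4 was -0.18 ± 0.07 (95% interval -0.34 to -0.02, adjusted p = 0.152, and 0.0797 with the block), not past the threshold.

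The receptors were then set against each other by their changes, since signals of different probe sets cannot be compared as levels. The change of Fgfr2 exceeded that of Fgfr1 by 0.71 on the log2 scale, that of Fgfr3 by 0.89 and that of Fgfr4 by 1.05. In each of the 3 comparisons the within-array difference was higher on all 3 tamoxifen arrays than on all 3 untreated arrays. The exact two-sided permutation p was 0.1 each time, also after adjustment over the 3 comparisons, which is the smallest possible here. The comparisons share Fgfr2, whose rise was already known when they were made.

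**Figure D2:**
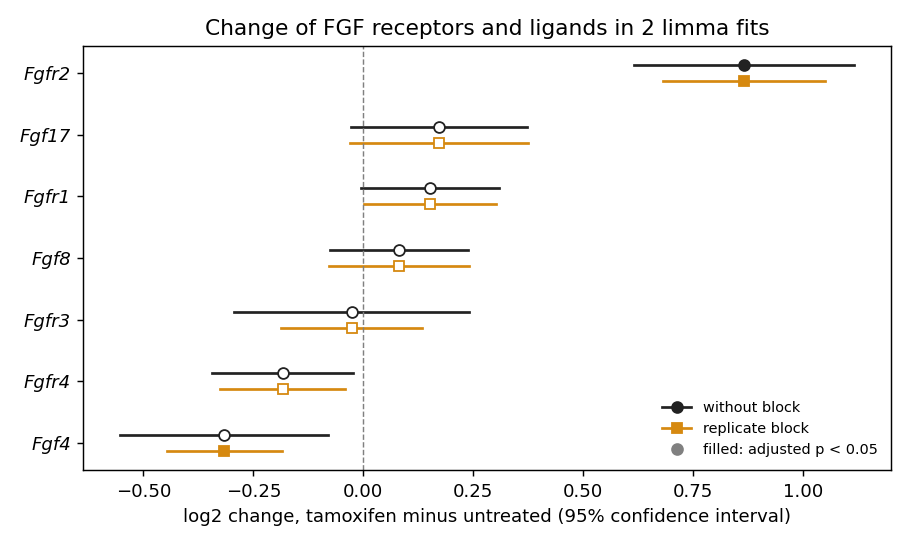
Log2 change, tamoxifen minus untreated, with 95% confidence intervals for the 7 genes in the limma fit without a block (black circles) and with the replicate number as a block (orange squares); filled symbols have an adjusted p under 0.05. Fgfr2 is filled in both fits at 0.87, and Fgf4 only with the block at -0.32.

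Among the ligands, Fgf4 was lower after tamoxifen. Fgf4 had 11.89, 11.80 and 11.58 on the tamoxifen arrays, against 12.24, 12.07 and 11.91 on the untreated arrays. The groups came close without overlapping, and in both of them replicate 1 was the highest and replicate 3 the lowest. The means were 11.76 ± 0.16 with tamoxifen and 12.07 ± 0.16 without (SD, n = 3 each), a log2 change of -0.32 ± 0.10 (SE). This is 1.24 times less signal, with a 95% interval from 1.06 to 1.47 times. The limma adjusted p was 0.103 without the block, so Fgf4 was not called there. With replicate numbers as a block, the adjusted p was 0.00835, beside 17.4% of all genes called in either direction and 9.54% called lower in that fit. The pairs differed by -0.35, -0.27 and -0.33, lower in 3 of 3, and the exact permutation p was 0.1. In the RefSeq gene order Fgf4 stands between Fgf3 and Fgf15, which had log2 changes of 0.14 ± 0.08 (adjusted p = 0.308) and 0.19 ± 0.07 (adjusted p = 0.142). The next protein-coding genes, outside the rule for genes, were Ano1 beyond Fgf3 and LTO1 beyond Fgf15. Ano1 was called higher (0.28 ± 0.06, adjusted p = 0.0343), and LTO1 was not called (0.10 ± 0.11, adjusted p = 0.640).

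Fgf8, a ligand needed for cells to migrate at gastrulation, had 7.99, 8.10 and 7.98 with tamoxifen, against 8.03, 7.85 and 7.94 without. The groups overlapped. The log2 change of Fgf8 was 0.08 ± 0.07 (95% interval -0.07 to 0.24, adjusted p = 0.512). Leaving out replicate 2 of either group brought it to 0.05 (tamoxifen) or 0.04 (untreated), and leaving out untreated replicate 1 to 0.12. Fgf17, of the same ligand subfamily, had 9.34, 9.21 and 9.19 with tamoxifen, against 8.89, 9.17 and 9.17 without. Its groups did not overlap, yet 2 pairs differed by only 0.04 and 0.03, and untreated replicate 1 stood below the rest. The log2 change of Fgf17 was 0.17 ± 0.09 (95% interval -0.03 to 0.37, adjusted p = 0.273), and 0.08 without untreated replicate 1.

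Of 19 other FGF genes, 0 rose, 1 fell and 18 were not called. Their median log2 change was 0.10, beside 0.01 over all genes. Among the 19, Fgf11, Fgf12, Fgf13 and Fgf14 encode proteins that stay inside the cell, and none of these was called. The 1 called is 5.26% of the list, against 7.78% of all genes. The list was dim, with mean log2 signals of 6.86 to 6.92 with tamoxifen and 6.75 to 6.85 without. Over all genes these were 7.97 to 7.99 and 7.96 to 7.98. How far its dimmer genes stand above background is unknown. Fgf10, a ligand of the Fgfr2 splice form of epithelia, fell. It had 7.16, 6.76 and 6.63 with tamoxifen, against 7.75, 7.27 and 7.43 without, a log2 change of -0.64 ± 0.15 (adjusted p = 0.0424). All 3 tamoxifen arrays lay below the untreated ones. The fall of Fgf10 was called in 1 of 6 fits that left out an array; without tamoxifen replicate 2 the adjusted p was 0.147. With the replicate block 2 ligands rose and 1 fell, beside 17.4% of all genes called in that fit. The rises, named outside the rule for genes, were Fgf9 (0.24, adjusted p = 0.0251) and Fgf18 (0.45, adjusted p = 0.00191), which had adjusted p-values of 0.0584 and 0.0683 without the block. Fgf5, a marker of the primed epiblast also named outside that rule, had a log2 change of 0.08 ± 0.08 (adjusted p = 0.604).

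FGF binding also needs heparan sulfate. Of 22 measured co-receptor and heparan sulfate genes, 3 rose, 0 fell and 19 were not called, beside 3.79% of all genes called higher. Their median log2 change was 0.14. The risers act on the sulfation of the chains. Sulf1, a sulfatase that trims the sulfate groups FGFs bind, had 10.33, 10.80 and 10.67 with tamoxifen, against 9.05, 9.67 and 9.53 without (log2 change 1.18 ± 0.17, adjusted p = 0.00754). Its groups were well apart. Its relative Sulf2 rose by 0.32 ± 0.08 (adjusted p = 0.0447) and Hs2st1, which adds sulfate at another position, by 0.30 ± 0.07 (adjusted p = 0.0313). Sulf1 was called in each of the 6 fits that left an array out. Sulf2 and Hs2st1 passed in 1 of these fits, the adjusted p without tamoxifen replicate 2 being 0.159 and 0.127. Sulf2 also missed the threshold after median centring (0.0571). With the block 7 rose and 0 fell, beside 7.87% of all genes called higher in that fit. The FGF-binding pseudo-receptor Fgfrl1, outside the rule for genes, had a log2 change of 0.02 ± 0.07 (adjusted p = 0.878).

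Of 17 measured adaptors and core members of the RAS-ERK cascade, 1 rose, 3 fell and 13 were not called, beside 3.79% of all genes called higher and 3.99% called lower. Their median log2 change was -0.07. The fallers were Shc1, an adaptor that links receptors to Grb2, at -0.40 ± 0.08 (adjusted p = 0.0248), Ptpn11, the phosphatase SHP2, at -0.33 ± 0.07 (adjusted p = 0.029), and Cbl, a ubiquitin ligase that removes receptors, at -0.27 ± 0.07 (adjusted p = 0.0471). Sos2, which loads RAS with GTP, rose, with a log2 change of 0.30 ± 0.06 (adjusted p = 0.0225). When each array was left out in turn, these genes passed in 3, 2, 1 and 2 of 6 fits, and without tamoxifen replicate 2 all 4 calls were lost (adjusted p of 0.0851, 0.11, 0.121 and 0.0877). Cbl was not called after cyclic loess (adjusted p = 0.0774). With the block 1 rose and 5 fell, beside 9.54% of all genes called lower in that fit. The further fallers, outside the rule for genes, were the RAS gene Nras (-0.24, adjusted p = 0.0231, or 0.0627 without the block) and the ERK-activating kinase Map2k1 (-0.25, adjusted p = 0.0441, or 0.157 without). Frs3, a relative of Frs2 named outside the rule, had a log2 change of -0.17 ± 0.08 (adjusted p = 0.259).

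Of 17 genes known to respond to FGF and ERK, 1 rose, 6 fell and 10 were not called, with a median log2 change of -0.27, beside 3.99% of all genes called lower. The fallers with the smallest p were the feedback inhibitor Spry1 (-0.80 ± 0.07, adjusted p = 0.00107), the immediate early gene Ier3 (-0.71 ± 0.10, adjusted p = 0.00616) and the ERK phosphatase Dusp4 (-0.78 ± 0.11, adjusted p = 0.00664). Spry1 had 9.36, 9.19 and 9.21 with tamoxifen, against 10.00, 10.08 and 10.09 without. The other fallers, outside the rule for genes, were the ETS factor Etv4 at -0.83, the inhibitor Spry4 at -0.74 and Phlda1 at -0.31, the last of which passed in 2 of the 6 fits that left an array out (adjusted p = 0.117 without tamoxifen replicate 2). Il17rd, an inhibitor of FGF signalling at the membrane, rose by 0.32 ± 0.07 (adjusted p = 0.028). It passed in 0 of the 6 fits that left an array out, the adjusted p being highest without tamoxifen replicate 2 (0.107). With the block 3 rose and 9 fell, beside 7.87% of all genes called higher and 9.54% called lower in that fit. The further risers, outside the rule for genes, were Egr1 (0.45, adjusted p = 0.00601, or 0.0593 without the block) and Etv1 (0.38, adjusted p = 0.00534, or 0.301 without). The further fallers, also outside it, were Myc (-0.78, adjusted p = 0.00224), Dusp6 (-0.265, adjusted p = 0.0224) and Spry2 (-0.30, adjusted p = 0.0268). Without the block their adjusted p-values were 0.174, 0.221 and 0.0549. Etv5, outside the rule, had a log2 change of 0.09 ± 0.07 (adjusted p = 0.476).

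**Figure D3:**
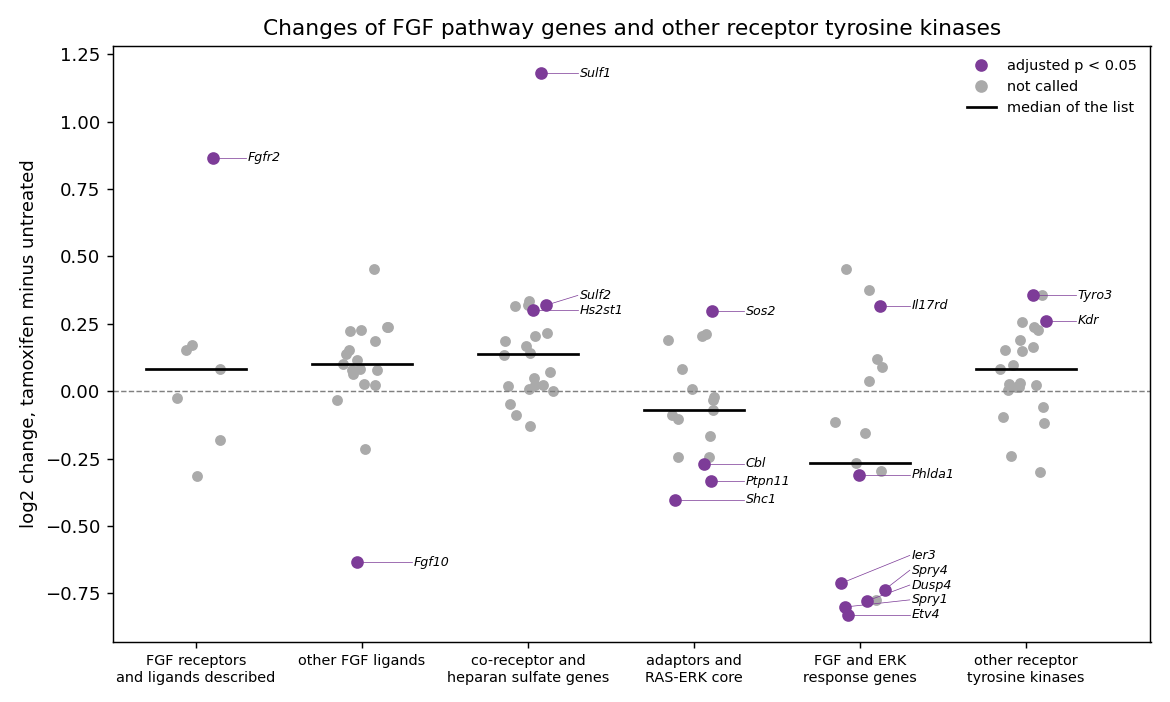
Log2 change, tamoxifen minus untreated (vertical axis), of each measured gene in 6 lists; purple points have an adjusted p under 0.05 and are named, grey points do not, and black lines are medians. Fgfr2 at 0.87 and Sulf1 at 1.18 stand highest, and most named FGF and ERK response genes lie between -0.71 and -0.83.

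A list of other receptor tyrosine kinases gave a setting for the FGF receptors. It also holds Igf2r, a receptor without a kinase domain, which was not called (adjusted p = 0.933). Of the 23 measured genes in that list, 2 rose, 0 fell and 21 were not called. Their log2 changes ran from -0.30 to 0.36, with a median of 0.08. The 2 called are 8.7% of the list, close to the 7.78% of all genes. Tyro3, a receptor for Gas6, rose, with a log2 change of 0.36 ± 0.07 (adjusted p = 0.0224), as did Kdr, a receptor for VEGF, with 0.26 ± 0.07 (adjusted p = 0.0468). Kdr was dim, with mean log2 signals of 5.94 with tamoxifen and 5.67 without, and only 20.7% of genes were dimmer. Tyro3 passed in 3 and Kdr in 0 of the 6 fits that left an array out. Without tamoxifen replicate 2 their adjusted p-values were 0.0911 and 0.172. After cyclic loess Kdr was not called (0.0602). With the block 5 rose and 2 fell, beside 17.4% of all genes called in that fit. These 23 receptors are a chosen set and leave out other receptor tyrosine kinases. The change of Fgfr2 lay outside their range. No test of that position was made.

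Markers of other cell types were read beside these results, since Fgfr2 is also a gene of the primitive endoderm and the trophoblast. In whole cultures more cells of a type and more RNA per cell cannot be told apart. Of 9 primitive endoderm markers limma called 0, with 1 higher and 2 lower where p before adjustment was under 0.05, a limit passed by 24.5% of all genes. Their mean log2 signal was 7.54 to 7.64 on the tamoxifen arrays and 7.53 to 7.72 on the untreated arrays. With the block 1 was called higher and 2 lower, beside 7.87% of all genes called higher and 9.54% called lower in that fit. These shares also apply to the block counts below. The higher gene was Pdgfra, also in the list of other receptor tyrosine kinases (0.36, adjusted p = 0.0518, or 0.018 with the block). The lower genes were Sox7 (-0.28, adjusted p = 0.0603, or 0.041 with the block) and Lama1 (-0.26, adjusted p = 0.0974, or 0.0495 with the block). All 3 are outside the rule for genes. Of 7 trophoblast markers 0 were called (1 higher and 2 lower at p under 0.05 before adjustment, 0 and 3 with the block). Their mean log2 signals were 7.17 to 7.37 with tamoxifen and 7.28 to 7.50 without. The 3 lower with the block, also outside the rule for genes, were Eomes, Ascl2 and Krt7. Eomes had a log2 change of -0.57 (adjusted p = 0.174, or 0.00745 with the block). Ascl2 had -0.52 (adjusted p = 0.107, or 0.0106 with the block) and Krt7 -0.26 (adjusted p = 0.433, or 0.0171 with the block). Of 8 fibroblast markers, which feeder cells would carry, 0 were called (0 higher and 1 lower at p under 0.05 before adjustment, 1 and 1 with the block). Their mean log2 signals were 6.65 to 6.75 with tamoxifen and 6.59 to 6.71 without. The 9 embryonic stem cell markers also had 0 calls (1 higher and 3 lower at that p; 0 and 2 with the block). RMA sets no value to 0 and gives no detection call, so absence of a marker could not be read. The part of other cell types in the rise of Fgfr2 was not tested.

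Over the 6 arrays the genes whose signal followed that of Fgfr2 most closely were Zfp324, Btbd11 and Pafah1b2, with Pearson r of 0.999, 0.998 and 0.997. Their log2 changes were 0.13, 0.74 and 0.45. The 6 arrays fall into 2 separate groups, so these values are a description of the arrays, with no test.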

How the data were processed

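RNA of 6 samples was measured on Affymetrix arrays. The deposited values are log2 intensities made by the authors with RMA (Affymetrix Expression Console 1.2), as the submitters' processing notes say. RMA subtracts background, quantile-normalises the arrays and summarises each probe set; a shift common to most transcripts would not show, and dim probe sets give compressed changes. That the scale is log2 follows from the range of values (3.18 to 14.6). The annotation's genome build is not given in the sources used here. Other samples had 0 columns.

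Of 35556 probe sets, 21789 had 1 gene symbol, 1621 several and 12146 none listed. Entrez IDs of 21698 matched RefSeq genes (GRCm38.p6), changing 0 symbols. The brightest probe set of each gene gave 19938 genes. The comparison used limma 3.58.1 under R 4.3.3 (lmFit, eBayes, two-sided, Benjamini-Hochberg), called at an adjusted p under 0.05, with no filter. The number of arrays limits precision.

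Deviations from group means of same-numbered arrays correlated at 0.356, 0.345 and 0.389, and 6 of 6 arrays correlated best with their own number. Same-numbered arrays thus shared part of their spread. The main values come from the unblocked fit, which leaves this pairing out. Blocked values are given where they change a member's call or a list's count.

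The members and lists were chosen with earlier results of these data known. Named genes are the members, Dicer1, from each list up to 3 called genes per direction by p (or the 2 with the smallest p), and the 3 genes most correlated with a called member; others are said to be outside the rule. Alternatives were the replicate block, mean probe sets, median centring, cyclic loess, a further quantile normalisation, a filter on the dimmest 40% of genes, a trended robust prior, array weights, both wider probe set tables, a threshold of 0.01 and leaving out each array.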

Additional observations from a re-analysis of the deposited data

How the results depend on the processing

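Fgfr2 kept its rise and its call in the 11 alternatives and in 6 of 6 fits without 1 array, with adjusted p-values from 0.000643 to 0.0386 over the 11. Averaging probe sets is no check of it, since each member has 1 probe set, and the stricter threshold leaves its value as it was. Among the other members, Fgf4 was called only with the replicate block (-0.32, adjusted p = 0.00835), where 2 members were called in place of 1. The block changed no other member's call. Fgfr3, close to 0, had the opposite sign with array weights (0.04), without tamoxifen replicate 2 (0.03) and without untreated replicate 1 (0.11). With the block 3472 genes were called in place of 1552, and 12 FGF and ERK response genes, 7 co-receptor and heparan sulfate genes, 3 other ligands, 6 adaptors and core members in place of 4, and 7 other receptor tyrosine kinases. Array weights gave 2511 genes, 3 other ligands and 4 other receptor tyrosine kinases, and median centring 4 of the last. Over all probe sets, with more features tested, limma called 336 features, 3 response genes and 0 in the other 4 lists. At an adjusted p under 0.01 it called 276 genes, 3 response genes, 1 co-receptor or heparan sulfate gene and 0 in the other 3 lists. Without 1 array the counts were 355 to 1580 genes, 5 to 7 response genes, 1 to 3 co-receptor and heparan sulfate genes, 0 to 3 adaptors and core members, 0 to 2 other ligands and 0 to 2 other receptor tyrosine kinases; 355 was without tamoxifen replicate 2, 539 without tamoxifen replicate 3, 516 without untreated replicate 2 and 908 without untreated replicate 3. Without 1 array Fgf4 ran from -0.40 to -0.23 and Fgfr3 from -0.12 to 0.11. The causes were not tested. No member had a further probe set, so that planned comparison gave no value. With no detection call, how far the dimmer members stand above background is unknown.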
